A study of Mus musculus with 6 samples.

Results

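Solute carriers are membrane proteins that move amino acids, sugars, ions, vitamins and metabolites across the plasma membrane and the membranes of organelles. The genes described here are those whose mouse symbol has the form Slc, family number, a, member number, and whose mean over the 6 samples was at least 100 normalized counts. A normalized count is the number of reads on a gene divided by the sample's size factor. Of 14490 listed genes, 192 had such a symbol and 153 of these reached the mean, which ran from 101.6 to 75371. Just inside the limit were Slc23a1 with a mean of 101.6 and Slc18a2 with 113.7, and just outside it were Slc25a13 with 98.9 and Slc22a17 with 98.7. The genes were thus chosen by symbol and by their mean normalized count, which is given as a description. The rule does not use the comparison of genotypes, but it was set with earlier results of these data known. The cells were splenic NK cells of C57BL/6 mice, purified by cell sorting and taken at 6 to 10 weeks of age according to the methods of the study. The WT group of 3 samples was Mettl3fl/fl, with both Mettl3 alleles floxed and no Cre. The cKO group of 3 samples was Ncr1Cre-Mettl3fl/fl, with the Cre allele given as heterozygous (Ncr1Cre/+) in the methods of the study, in which Cre from the Ncr1 locus, active in NK cells and in other cells that express Ncr1, deletes the floxed gene. A control with Cre and intact Mettl3 was not among the samples. The labels do not say whether the samples were separate mice, so p-values measure the spread between these samples.

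METTL3 is the catalytic subunit of the complex that writes N6-methyladenosine on mRNA. Activated lymphocytes take up more glucose and amino acids as they grow, through carriers such as GLUT1 (Slc2a1) and the LAT1 heterodimer of Slc7a5 and Slc3a2, and export lactate through monocarboxylate carriers of the Slc16 family. Carriers of the Slc25 family sit mostly in the inner mitochondrial membrane and exchange nucleotides, phosphate, carboxylates and cofactors between the matrix and the cytosol. The Slc39 and Slc30 families carry zinc into and out of the cytosol.

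Mettl3, the deleted gene, stood at 1303, 1258 and 1192 normalized counts in the WT samples and at 297, 299 and 405 in the cKO samples (log2 fold change −1.92, limma adjusted p = 2.32e-14). NK markers were abundant in every sample, with summed levels of 903473 to 931730 in WT and 875576 to 914946 in cKO for 11 genes, of which 2 were higher and 5 lower in cKO. Ncr1, the locus that carries the Cre, was among the lower ones (log2 fold change −0.40). Of 10 B-cell markers, 8 were higher in cKO and 0 lower, and their summed level ran from 1444 to 1455 in WT and from 1987 to 2067 in cKO. Cd79a, a defining B-cell gene, had a mean of 201 in WT and 334 in cKO. Cd79b had means of 135 and 137, and Cd79b and Ebf1 were not called (limma adjusted p = 0.877 and 0.466). Of 8 myeloid markers measured, 4 were higher and 1 lower. Of 8 T-cell markers, 0 were called higher and 2 lower, with sums of 7903 to 8484 in WT and 6679 to 7164 in cKO. The 2 lower were Lat, with means of 5477 and 4549, and Cd3g, with 802 and 478, and Lat held most of the sum. Trac, with means of 767 and 863, and Cd8a, with 45.2 and 71.3, were higher in cKO without overlap. These 2 were not called (limma adjusted p = 0.0750 and 0.0514). Of 5 platelet markers 1 was higher, and of 6 erythroid markers 0 were called at the adjusted threshold. The part of these other cells in the results below was not tested. In such bulk samples fewer cells of a type and less RNA per cell cannot be told apart. All values of a sample were whole multiples of 1 step within a tolerance of 0.01, and if a step is 1 read, 55965515 to 71464042 reads fell on the listed genes.

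The solute carrier genes changed in both directions and by small amounts. By limma, with Benjamini-Hochberg adjustment over all 14490 genes, 56 of the 153 passed an adjusted p under 0.05, of which 30 were higher in cKO and 26 lower. That is 36.6% of them, beside 36.6% of all listed genes and 45.3% of the 11055 genes that reached the same mean. Over all listed genes 17.8% were higher and 18.8% lower, and over genes of that mean 21.6% and 23.7%. The share of called genes was thus that of all listed genes and under that of genes with a mean of at least 100. That set was not matched on abundance, and its median of mean counts was 1727 beside 1391 for the solute carrier genes. Of the 39 genes with such a symbol but a lower mean, 4 were called, which is 10.3% of them, beside 8.85% of all 3435 listed genes with a mean under 100. Among the 153, called log2 fold changes ran from −0.99 for Slc2a6 to 0.68 for Slc45a3. Only 5 called genes changed by at least 0.5 on the log2 scale, namely Slc45a3 and Slc15a2, which rose, and Slc2a6, Slc44a1 and Slc23a1, which fell, whereas 6.95% of all listed genes and 6.36% of genes of that mean did so. The median log2 fold change was 0.035 and the median size of change 0.12, beside 0.17 for the size over all listed genes and 0.14 over genes of a mean of at least 100. For 122 of the 153 genes the 95% confidence interval lay between −0.5 and 0.5. With every sample scaled to an equal total instead, 39 were higher and 22 lower, and 52 of the 56 calls were shared. With that scaling 24.1% of all listed genes were higher and 13.9% lower, and of genes of that mean 29.5% and 17.4%. For 70 genes the cKO samples did not overlap the WT samples, 39 above and 31 below, beside 45.7% of all listed genes and 53.7% of genes of that mean. The exact permutation test, two-sided, gave p = 0.1 for each of these, the smallest p that 3 samples against 3 allow. Summed over the 153 genes, normalized counts came to 548819 to 553877 in WT and 543016 to 549974 in cKO. These sums were 0.829% to 0.831% of the values of all listed genes in WT and 0.847% to 0.855% in cKO, where the sum over all genes was lower, at 63610357 to 64941538 against 66099619 to 66657947.

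By substrate class, 7 of 17 amino acid carriers were called, 5 higher and 2 lower in cKO, with a median log2 fold change of 0.12. Of 14 sugar carriers 8 were called, 3 higher and 5 lower, with a median of −0.11. Of 45 carriers of inorganic ions 15 were called, 9 higher and 6 lower, with a median of 0.040. Of 35 Slc25 carriers, the mitochondrial class, 14 were called, 7 in each direction, with a median of 0.021. Of 5 nucleotide sugar carriers 1 was higher, and of 37 carriers of other substrates 5 were higher and 6 lower. Differences between the classes were not tested, and each share is to be read beside the 45.3% of genes that reached the same mean and the 36.6% of all listed genes.

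**Figure D1:**
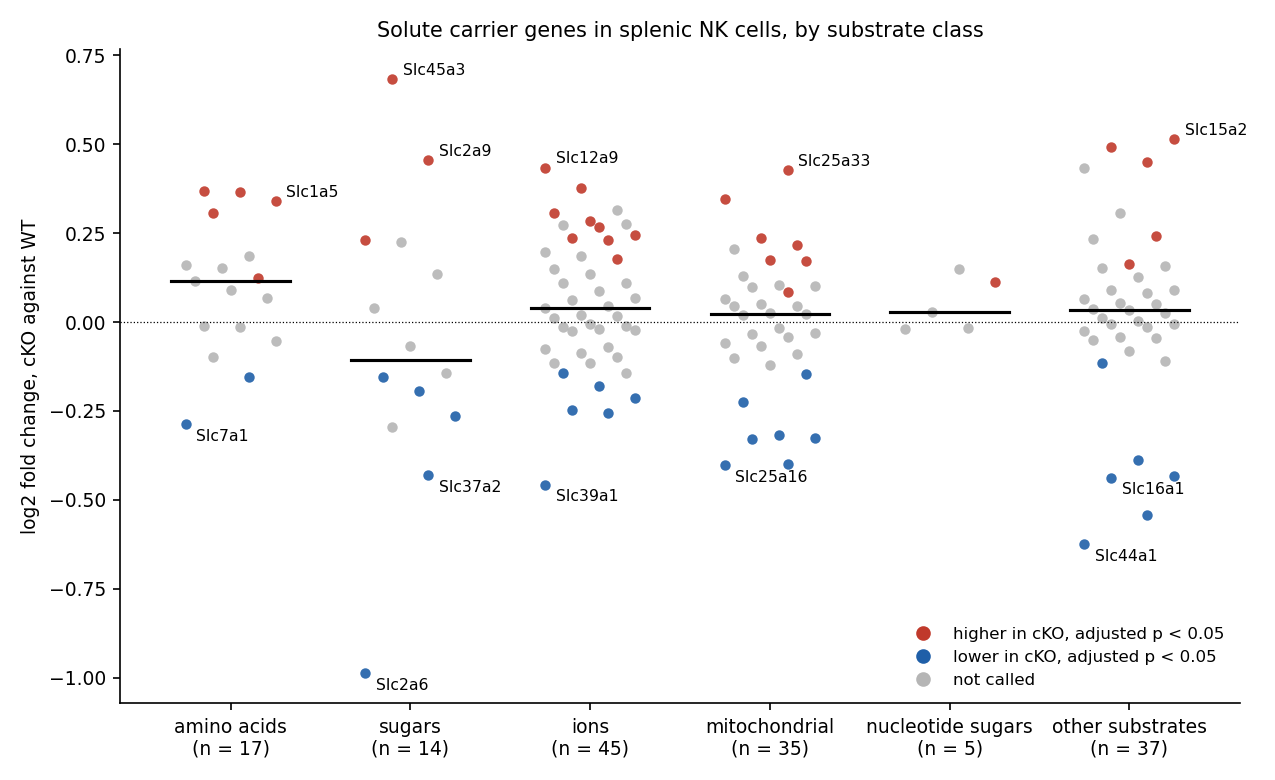
Each point is 1 solute carrier gene, placed by its log2 fold change of cKO against WT on the vertical axis and by substrate class on the horizontal axis, with black bars at the class medians. Red points were higher and blue points lower in cKO at a limma adjusted p under 0.05, grey points were not called, and the class medians lie between −0.11 for sugars and 0.12 for amino acids.

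The sequences just upstream of 4 genes with clear changes are shown for what they hold before the RefSeq start of transcription. Slc2a6 had the largest fall of all, Slc16a1 a fall among the lactate carriers, Slc12a9 the largest rise among ion carriers and Slc25a33 the largest rise among mitochondrial carriers. These 4 were chosen after their values were seen. Each is the 250 bases before the RefSeq start on GRCm38.p6, read 5′ to 3′ on the gene's strand, at chr2:27027999-27028248 (minus strand) for Slc2a6, chr3:104638414-104638663 (plus) for Slc16a1, chr5:137333583-137333832 (minus) for Slc12a9 and chr4:149774268-149774517 (minus) for Slc25a33. Capitals mark the letters CACGTG and TGANNNNGC on either strand. CACGTG is the E-box read by basic helix-loop-helix factors such as MYC, USF and TFEB. TGANNNNGC, with any base at each N, is a loose form of the antioxidant element and is called the antioxidant letters here.
Slc2a6: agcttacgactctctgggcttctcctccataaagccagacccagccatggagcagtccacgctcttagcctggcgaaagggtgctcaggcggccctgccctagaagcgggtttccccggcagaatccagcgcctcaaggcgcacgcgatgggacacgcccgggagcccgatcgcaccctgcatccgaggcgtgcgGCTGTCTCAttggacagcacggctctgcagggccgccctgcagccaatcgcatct
Slc16a1: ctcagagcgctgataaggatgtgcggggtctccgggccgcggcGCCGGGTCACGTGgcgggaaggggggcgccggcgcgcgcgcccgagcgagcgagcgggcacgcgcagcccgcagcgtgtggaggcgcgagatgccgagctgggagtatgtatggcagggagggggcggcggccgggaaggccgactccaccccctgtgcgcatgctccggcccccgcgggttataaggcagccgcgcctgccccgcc
Slc12a9: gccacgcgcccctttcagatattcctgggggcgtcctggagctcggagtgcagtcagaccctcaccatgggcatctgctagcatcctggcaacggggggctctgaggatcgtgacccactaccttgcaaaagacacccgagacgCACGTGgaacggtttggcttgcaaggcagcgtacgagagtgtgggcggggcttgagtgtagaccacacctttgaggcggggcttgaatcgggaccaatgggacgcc
Slc25a33: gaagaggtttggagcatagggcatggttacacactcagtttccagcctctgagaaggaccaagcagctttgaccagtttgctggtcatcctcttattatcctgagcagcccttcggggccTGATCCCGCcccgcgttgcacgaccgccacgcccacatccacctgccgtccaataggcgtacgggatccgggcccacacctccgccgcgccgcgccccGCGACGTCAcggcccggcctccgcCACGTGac
The Slc2a6 window held 1 match to the antioxidant letters and no E-box letters. In the Slc16a1 window the E-box began 200 bases before the start and overlapped the antioxidant letters. In the Slc12a9 window it began 106 bases before the start, and in the Slc25a33 window 8 bases before it. The gene spans of Slc12a9 and Slc25a33 given below reach into their windows, and that of Slc25a33 covers its E-box. RefSeq windows were given for 113 of the 153 genes, 153 windows in all. The E-box letters stood in 13.1% of these windows and in 6.02% of the 32851 windows of all 27025 genes with one. The antioxidant letters stood in 43.1% and 35.2%, and TGATGNAA, the C/EBP-ATF element of amino acid response genes, in 3.27% and 3.45%. Of the solute carrier genes with a window, 5 of 20 called higher and 3 of 17 called lower had an E-box. By gene this was 25% and 17.6%, beside 16.8% of the 113 solute carrier genes with a window and 6.86% of all genes with one. The set of 27025 genes was not limited to genes listed for these samples or to genes of like abundance. Shares for genes of like abundance or base composition were not computed, so an excess of these letters in solute carrier genes was not tested. A match of letters is a description and was not tested as a site. For 111 of the 153 windows the bases just after the start were found in a GENCODE transcript of the gene, the 4 shown among them.

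Glucose and fructose carriers of the Slc2 family, the GLUT proteins, held the largest change. Slc2a6 (chromosome 2, 27021363 to 27027998, minus strand) encodes GLUT6, a hexose carrier found on lysosomal membranes. Its normalized counts were 8980, 9198 and 9657 in WT and 4562, 4869 and 4604 in cKO. The cKO samples lay close to each other and far under the lowest WT sample. The means were 9278 ± 346 (SD, n = 3) and 4678 ± 166 (SD, n = 3), a change of −49.6%, and the log2 fold change by limma was −0.99 ± 0.0383 (SE), with an adjusted p of 1.07e-16. Per kilobase of exon, Slc2a6 went from 2890 to 1457 normalized counts, while Slc2a3 went from 1785 to 1486 and Slc2a1 from 3099 to 2787. By this measure Slc2a6 stood between Slc2a1 and Slc2a3 in WT and close to Slc2a3 in cKO. The exon length was that of all annotated exons of a gene merged, not of the transcripts expressed here. The order of genes per kilobase thus depends on the annotation.

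Slc2a1 and Slc2a3, the main plasma membrane glucose carriers of lymphocytes, fell less. Slc2a3 (chromosome 6, 122727809 to 122801640, minus strand) stood at 13153, 12999 and 12654 normalized counts in WT and 10596, 10874 and 10823 in cKO, and the log2 fold change by limma was −0.26 ± 0.0321 (SE), with an adjusted p of 2.56e-07. Slc2a1 (chromosome 4, 119108711 to 119137983, plus strand) had 10995, 10835 and 10763 in WT and 10074, 9542 and 9696 in cKO, and the log2 fold change by limma was −0.15 ± 0.0333 (SE), with an adjusted p of 0.000599. For both genes the groups did not overlap, and the spread within a group was small beside the difference. Slc2a9, best known as a urate carrier, rose from 665, 600 and 531 to 816, 815 and 822 (log2 fold change 0.46, limma adjusted p = 9.64e-05). Slc2a8, an intracellular glucose carrier, and Slc2a10 were not called, with log2 fold changes of −0.14 and 0.22 and overlapping groups. Of the 6 Slc2 genes, 1 rose and 3 fell.

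The other sugar carriers went both ways. Slc37a2, a sugar phosphate exchanger of the endoplasmic reticulum, fell from 1259, 1250 and 1308 to 924, 1039 and 876 (log2 fold change −0.43, limma adjusted p = 1.40e-05), while its relative Slc37a1 rose from 2800, 3036 and 2739 to 3402, 3360 and 3300 (0.23, adjusted p = 0.000205). Slc37a4, which feeds the glucose phosphatase of that organelle, was not called (log2 fold change 0.039). Slc45a3, a proton-coupled sugar carrier, had the largest rise among the called genes, from 137, 108 and 92.7 normalized counts to 197, 164 and 178 (log2 fold change 0.68 ± 0.180, SE, limma adjusted p = 0.00364). Its counts were low, at the level of the B-cell markers that rose in the same samples, and 13.5% of its exon bases overlap another gene. Slc45a4 fell by 0.20 on the log2 scale (adjusted p = 0.0103), a call lost with equal totals, without WT sample 1 and without cKO sample 1, where the adjusted p reached 0.0759. Slc50a1, a sugar efflux carrier, had means of 5982 in WT and 5711 in cKO and was not called. Slc5a3, which carries inositol, had a log2 fold change of −0.29 (adjusted p = 0.0860).

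Among carriers of lactate and pyruvate, Slc16a1 fell and Slc16a3 did not pass the test. Slc16a1 (chromosome 3, 104638668 to 104658462, plus strand) encodes MCT1. It had 3848, 3960 and 3635 normalized counts in WT and 2829, 2816 and 2799 in cKO, with the cKO samples within a narrow band below all WT samples. The limma estimate was −0.44 ± 0.0434 on the log2 scale (SE), at an adjusted p of 8.71e-09, a change of the means of −26.2%. Slc16a3, which encodes the lactate exporter MCT4, had 387, 370 and 366 in WT and 381, 367 and 364 in cKO, with a 95% confidence interval of the log2 fold change from −0.23 to 0.20. Slc16a6 fell by 0.12 on the log2 scale (limma adjusted p = 0.0371), which was lost with equal totals and without WT sample 1, WT sample 2, cKO sample 2 or cKO sample 3 (adjusted p up to 0.232), and 21.5% of its exon bases overlap Amz2.

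**Figure D2:**
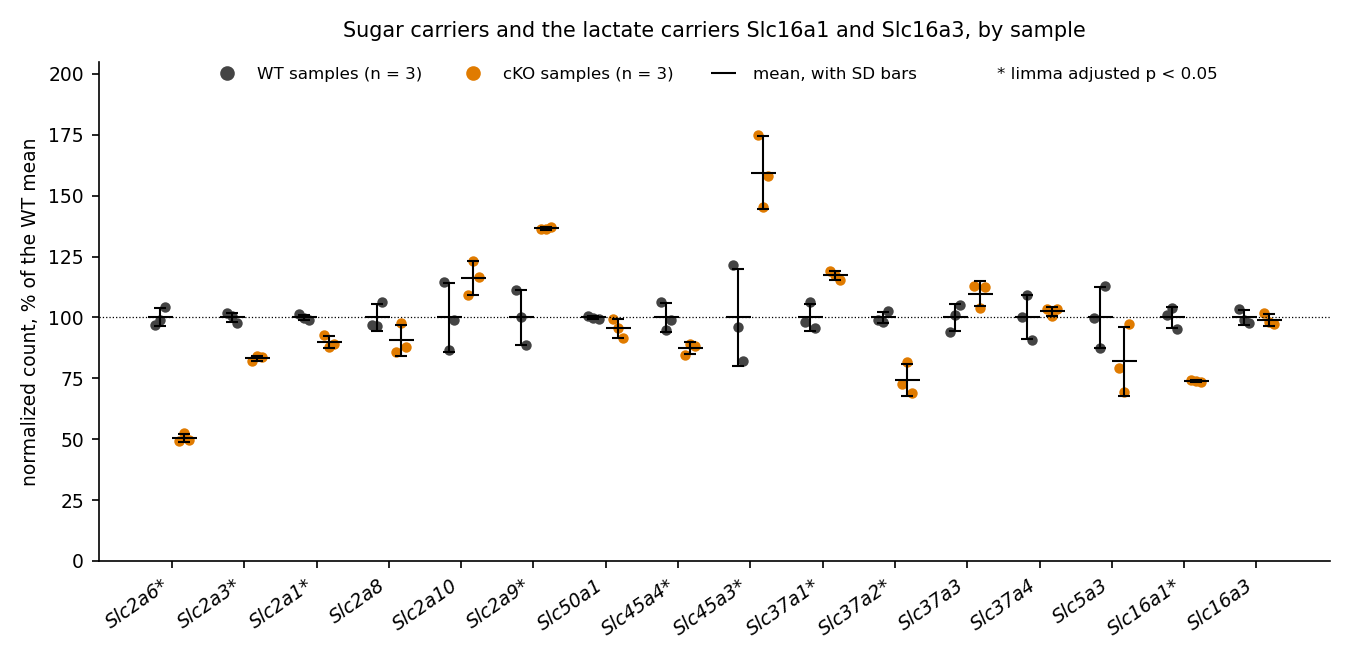
Normalized counts of the 14 sugar carriers and of Slc16a1 and Slc16a3 in each of the 6 samples, as a percentage of the gene's WT mean, with black marks at the group means and bars of 1 SD (n = 3). Asterisks mark a limma adjusted p under 0.05; the 3 cKO samples of Slc2a6 sit near 50% of the WT mean and those of Slc45a3 lie well above the WT samples.

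Among the amino acid carriers 5 rose and 2 fell. Slc1a5 (chromosome 7, 16781340 to 16798274, plus strand) encodes ASCT2, a sodium-dependent exchanger that takes up glutamine. It had 13515, 13952 and 14224 normalized counts in WT and 16949, 18191 and 17662 in cKO, so all cKO samples were above all WT samples. The means were 13897 ± 357 (SD, n = 3) and 17601 ± 623 (SD, n = 3), and the log2 fold change by limma was 0.34 ± 0.0333 (SE), with an adjusted p of 6.62e-09. Slc36a1, a proton-coupled exporter of small amino acids on lysosomes, had 2296, 2061 and 2175 in WT and 2722, 2525 and 2831 in cKO (log2 fold change 0.31, adjusted p = 3.51e-05). Slc16a10, a carrier of aromatic amino acids, had 449, 381 and 408 in WT and 481, 543 and 574 in cKO (0.37, adjusted p = 0.00473). Slc38a1, a sodium-coupled glutamine carrier, rose by a smaller amount, from 15328, 15730 and 14734 to 16611, 16533 and 16690 (0.12, adjusted p = 0.00333).

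Slc7 genes encode the light chains that pair with the heavy chain CD98, the product of Slc3a2, together with the stand-alone cationic carriers. Slc7a1 (chromosome 5, 148327410 to 148399904, minus strand), an arginine and lysine carrier that needs no heavy chain, fell from 8205, 7914 and 7858 normalized counts to 6395, 6543 and 6702 (log2 fold change −0.29 ± 0.0355, SE, limma adjusted p = 3.36e-07). Slc7a5, the light chain of LAT1, fell from 5404, 5272 and 5175 to 4812, 4653 and 4784 (−0.15, adjusted p = 0.00202). The heavy chain gene Slc3a2 had 52380, 55066 and 51895 in WT and 52835, 53828 and 51163 in cKO. Its groups overlapped, and the 95% confidence interval of its log2 fold change ran from −0.08 to 0.05. Slc7a7, another light chain, rose from 249, 270 and 227 to 352, 292 and 319 (0.36, adjusted p = 0.0229), but without WT sample 3, cKO sample 1 or cKO sample 3 the adjusted p reached up to 0.121. Slc7a6 and Slc7a8 were not called, with log2 fold changes of 0.090 and 0.16.

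Slc38a2, a system A carrier of neutral amino acids, had the highest normalized counts of all 153 genes when gene length is not considered, with 76988, 75672 and 74350 in WT and 73845, 75859 and 75512 in cKO. These values overlapped, and the 95% interval of the log2 fold change was −0.07 to 0.05. Slc38a9, a lysosomal carrier that senses arginine for mTORC1, had 1292, 1241 and 1478 in WT and 1378, 1468 and 1490 in cKO (adjusted p = 0.172). Without WT sample 3 its adjusted p was 0.0270. Slc43a2, a large neutral amino acid carrier, had a log2 fold change of 0.15 with groups that did not overlap but an adjusted p of 0.0630. With equal totals and without WT sample 2 it passed the test, with adjusted p-values of 0.0128 and 0.0334.

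**Figure D3:**
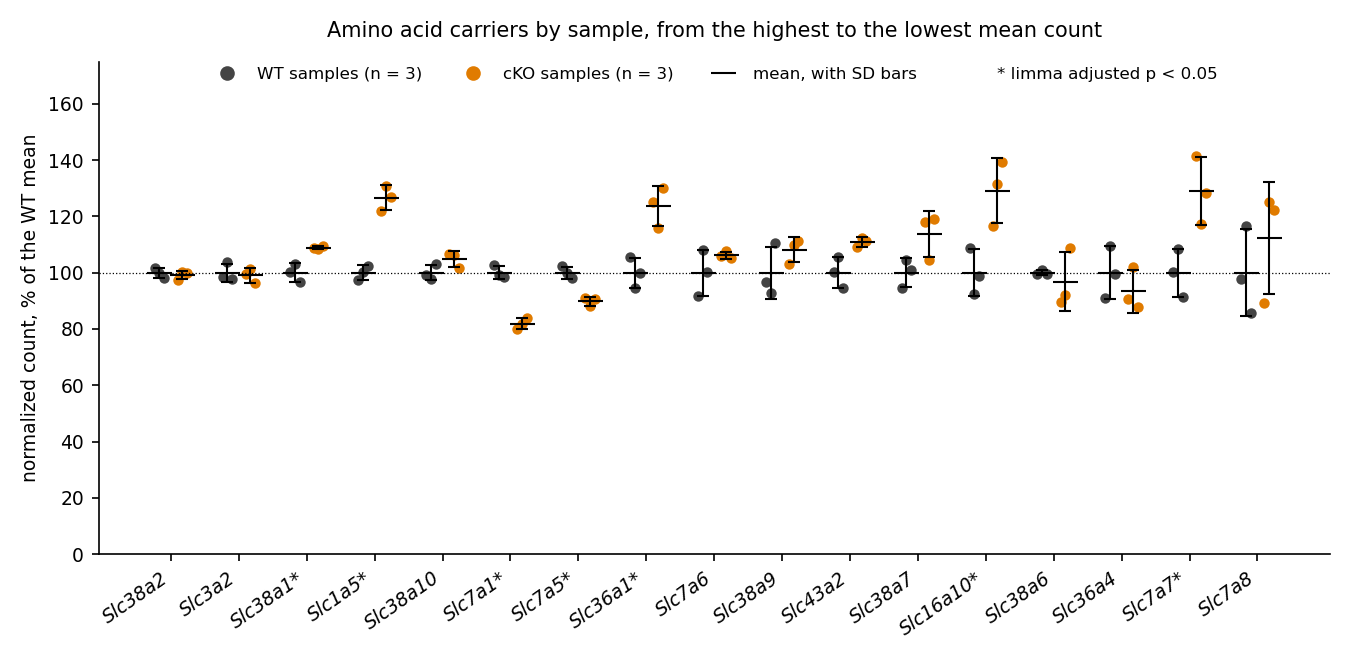
Normalized counts of the 17 amino acid carriers in each of the 6 samples, as a percentage of the gene's WT mean, ordered from the highest to the lowest mean count, with group means and bars of 1 SD (n = 3). Asterisks mark a limma adjusted p under 0.05; Slc1a5, Slc36a1, Slc16a10 and Slc7a7 lie above the WT samples and Slc7a1 and Slc7a5 below, while the samples of Slc38a2 and Slc3a2 overlap.

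Among the metal carriers, the zinc families moved in both directions. Slc39a1 (chromosome 3, 90248172 to 90253612, plus strand) encodes ZIP1, a zinc importer of the plasma membrane. It had 4073, 4009 and 3980 normalized counts in WT and 2806, 2994 and 2991 in cKO, with all cKO samples far below WT. The limma estimate was −0.46 ± 0.0424 on the log2 scale (SE), at an adjusted p of 2.50e-09, and a pseudogene named after it exists, so its reads could be split. Slc39a13, a zinc carrier of intracellular membranes, fell from 962, 1074 and 1073 to 877, 923 and 806 (−0.25, adjusted p = 0.00651). In the other direction, Slc39a6 rose from 1553, 1403 and 1459 to 1858, 1819 and 1784 (0.31, adjusted p = 6.81e-05). Slc30a7, which loads zinc into the Golgi, rose from 820, 834 and 821 to 1115, 1095 and 1010 (0.38, adjusted p = 7.31e-05), and 10.5% of its exon bases overlap another gene. Of 11 Slc39 importers, 2 rose and 2 fell, the second rise being Slc39a10 (0.23, adjusted p = 0.0314), which lost its call without WT sample 2, WT sample 3, cKO sample 2 or cKO sample 3 (adjusted p up to 0.146). Of 5 Slc30 exporters 1 rose. Slc30a1, the plasma membrane zinc exporter, was spread between 94.0 and 183 with overlapping groups (adjusted p = 0.245).

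Among the iron and copper carriers outside the Slc25 and Slc39 families 1 rose and 1 fell. Slc11a2, the divalent metal carrier DMT1, rose from 1961, 1842 and 1899 normalized counts to 2227, 2272 and 2211 (log2 fold change 0.24, limma adjusted p = 0.000394). Slc40a1, the iron exporter ferroportin, had means of 1479 ± 119 (SD, n = 3) and 1551 ± 135 (SD, n = 3) and was not called. Slc11a1, the phagosomal carrier NRAMP1, had means of 579 and 582, with a 95% confidence interval of the log2 fold change from −0.17 to 0.19. Slc31a1, the copper importer CTR1, fell from 1449, 1597 and 1478 to 1354, 1238 and 1308 (−0.21, adjusted p = 0.00583). The highest cKO sample of Slc31a1 lay not far under its lowest WT sample.

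Chloride, magnesium and sulfate carriers gave further calls. Slc12a9 (chromosome 5, 137314558 to 137333597, minus strand), a member of the cation-chloride cotransporter family whose substrate is less well known, had 1231, 1110 and 1094 normalized counts in WT and 1562, 1569 and 1506 in cKO. The groups lay well apart. This was the largest called rise among ion carriers, at 0.43 ± 0.0608 on the log2 scale (SE, limma adjusted p = 2.40e-06). Slc12a4, a potassium-chloride cotransporter, fell by 0.14 on the log2 scale (adjusted p = 0.0245), a call lost with equal totals and without WT sample 3, cKO sample 1 or cKO sample 2 (adjusted p up to 0.145). Slc26a2, a sulfate carrier, fell from 1751, 1694 and 1810 to 1575, 1433 and 1425 (−0.25, adjusted p = 0.00106), and Slc26a11, also a sulfate carrier, rose from 4340, 4453 and 4595 to 5565, 5220 and 5336 (0.27, adjusted p = 5.11e-06). All 3 magnesium carriers of the Slc41 family were called. Slc41a1 fell by 0.18 on the log2 scale (adjusted p = 0.000855), Slc41a3 rose by 0.28 (adjusted p = 0.0148) and Slc41a2 rose by 0.18 (adjusted p = 0.0299). Both rises lost their call when single samples were left out, with adjusted p-values of up to 0.0710 for Slc41a3 (without WT sample 2 or cKO sample 3) and 0.0950 for Slc41a2 (without WT sample 1, WT sample 3, cKO sample 2 or cKO sample 3).

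Slc20a1, a sodium-phosphate cotransporter, was the most abundant ion carrier per kilobase of exon, with a mean level of 3196 normalized counts. The samples held 17966, 17461 and 17702 in WT and 17964, 17637 and 18260 in cKO before scaling for length. The groups overlapped, and the 95% confidence interval of its log2 fold change was −0.04 to 0.08. Slc4a7, a sodium-bicarbonate cotransporter, had means of 3069 and 3034, and 0 of the 3 bicarbonate carriers were called.

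**Figure D4:**
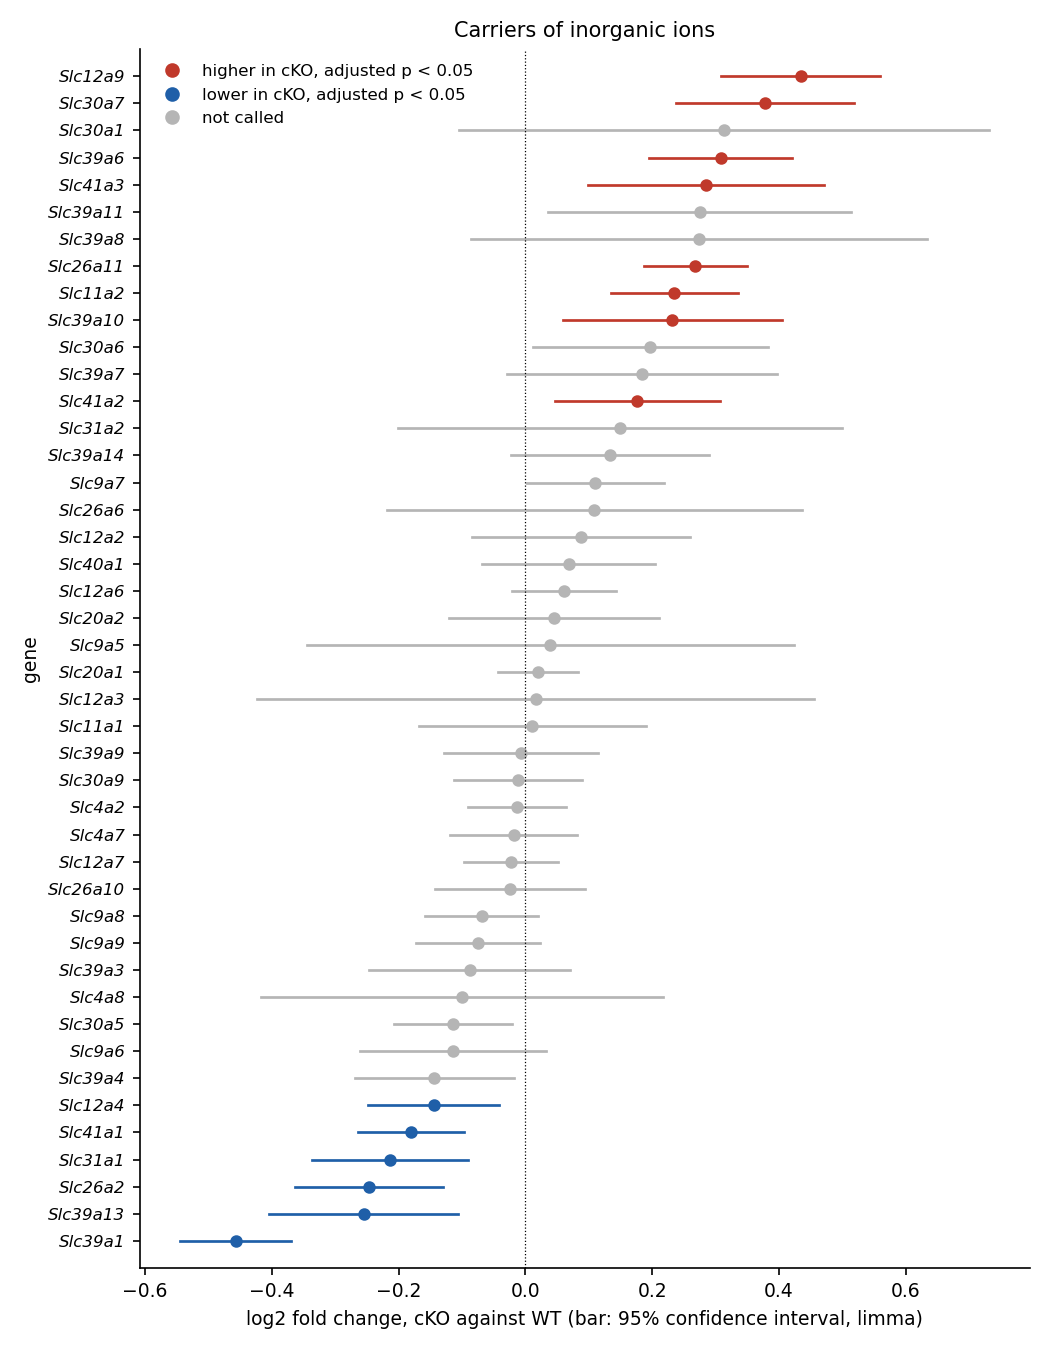
Log2 fold changes of cKO against WT for all but 1 of the 45 carriers of inorganic ions, ordered by size, with bars for the 95% confidence intervals from limma (3 samples per genotype). Red genes were higher and blue genes lower in cKO at an adjusted p under 0.05; Slc12a9 has the highest value and Slc39a1 the lowest, with most intervals reaching across or close to 0.

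Mitochondrial carriers of the Slc25 family were divided evenly, with 7 higher and 7 lower of 35. Both carriers of pyrimidine nucleotides were called and in opposite directions. Slc25a36 (chromosome 9, 97074961 to 97111157, minus strand) stood at 14962, 14728 and 15343 normalized counts in WT and 11984, 11857 and 12064 in cKO, and the log2 fold change by limma was −0.33 ± 0.0315 (SE), with an adjusted p of 5.17e-09. Slc25a33 (chromosome 4, 149744036 to 149774277, minus strand) had 1067, 1080 and 1111 in WT and 1501, 1450 and 1433 in cKO, and the log2 fold change by limma was 0.43 ± 0.0588 (SE), with an adjusted p of 1.76e-06. In both genes the 2 groups were separated by more than the spread within either. Per kilobase of exon the mean level over all samples was 1406 for Slc25a36 and 675 for Slc25a33, and 14.9% of the exon bases of Slc25a33 overlap another gene.

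Carriers of carboxylates and cofactors were among the falls. Slc25a1, the citrate carrier that supplies cytosolic acetyl-CoA, had 1613, 1679 and 1520 normalized counts in WT and 1276, 1344 and 1214 in cKO (log2 fold change −0.33, limma adjusted p = 8.32e-05). Slc25a10, the dicarboxylate carrier, fell from 872, 867 and 798 to 636, 708 and 690 (−0.32, adjusted p = 0.00165). Slc25a11, the carrier of the malate-aspartate shuttle that exchanges oxoglutarate and malate, had means of 3438 and 3285 and was not called. The aspartate-glutamate carrier Slc25a12, of the same shuttle, had a log2 fold change of −0.089 with overlapping groups (adjusted p = 0.144). Slc25a16, linked to coenzyme A transport, fell from 1333, 1360 and 1406 to 961, 1113 and 1030 (−0.40, adjusted p = 1.64e-05). Slc25a51, the carrier of NAD, fell from 5336, 5358 and 5259 to 4878, 4711 and 4817 (−0.15, adjusted p = 0.00251).

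The ATP-Mg and phosphate carriers diverged. Slc25a23 fell from 704, 673 and 623 normalized counts to 523, 490 and 502 (log2 fold change −0.40, limma adjusted p = 0.000527), Slc25a24 rose from 4313, 4047 and 3991 to 4528, 4689 and 4720 (0.17, adjusted p = 0.00127), and Slc25a25 was not called. Of the iron importers, Slc25a37, mitoferrin-1, fell from 2608, 2617 and 2322 to 2174, 1996 and 2283 (−0.23, adjusted p = 0.00204), with the highest cKO sample just under the lowest WT sample. Slc25a28, mitoferrin-2, had means of 2152 and 2180 and was not called. Slc25a44, a carrier of branched-chain amino acids, rose from 2974, 2910 and 2756 to 3366, 3329 and 3484 (0.24, adjusted p = 0.000112). Slc25a45 rose from 1832, 1851 and 1727 to 2074, 2156 and 2055 (0.22, adjusted p = 0.00136). Slc25a14, an uncoupling-like carrier, rose from 223, 236 and 236 to 276, 300 and 309 (0.34, adjusted p = 0.0303), and lost its call without WT sample 1, cKO sample 2 or cKO sample 3 (adjusted p up to 0.107).

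The carriers that serve oxidative phosphorylation had small differences. Slc25a3, which imports phosphate for ATP synthesis, had 52882, 53636 and 55102 normalized counts in WT and 51760, 53153 and 52085 in cKO, and the 95% confidence interval of its log2 fold change was −0.10 to 0.02. Slc25a5, an adenine nucleotide exchanger with 14050 normalized counts per kilobase of exon beside 1431 for Slc25a4, had 22626, 22800 and 21942 in WT and 23829, 24340 and 23219 in cKO, a difference of 0.084 on the log2 scale (limma adjusted p = 0.0340). That call was lost without WT sample 3, cKO sample 1 or cKO sample 2 (adjusted p up to 0.146), and a pseudogene named after Slc25a5 exists. Slc25a4, the other adenine nucleotide exchanger, had means of 3435 and 3298 and was not called. Slc25a26, which brings the methyl donor S-adenosylmethionine into mitochondria, had 224, 200 and 193 in WT and 211, 230 and 222 in cKO, with a 95% confidence interval of −0.18 to 0.39.

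**Figure D5:**
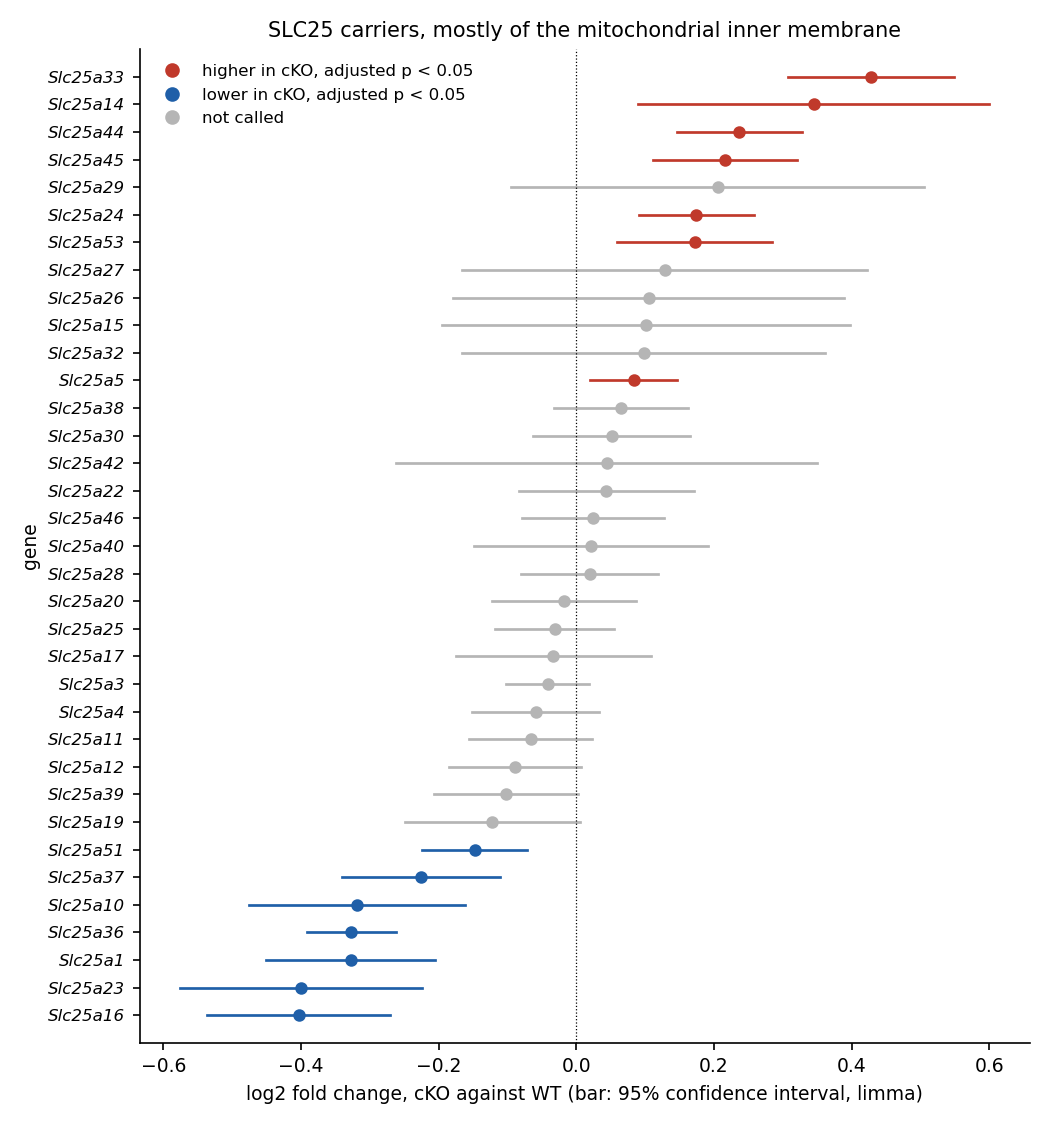
Log2 fold changes of cKO against WT for the 35 Slc25 carriers, ordered by size, with bars for the 95% confidence intervals from limma (3 samples per genotype). Red genes were higher and blue genes lower in cKO at an adjusted p under 0.05, with 7 of each; Slc25a33 has the highest value and Slc25a16 the lowest.

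Peptide carriers of the Slc15 family split. Slc15a2 (chromosome 16, 36750177 to 36784962, minus strand) encodes PEPT2, a proton-coupled carrier of di- and tripeptides. It had 2850, 2879 and 2903 normalized counts in WT and 4143, 3872 and 4322 in cKO, with every WT sample within a narrow band far below cKO. The limma estimate was 0.51 ± 0.0444 on the log2 scale (SE), at an adjusted p of 6.73e-10, a change of the means of 42.9%. Slc15a3, an endolysosomal carrier of histidine and small peptides, fell from 666, 682 and 720 to 474, 595 and 470 (−0.43, adjusted p = 0.000560), and 28.1% of its exon bases overlap Tmem132a. Slc15a4, its endolysosomal relative needed for signalling of nucleic acid receptors, had means of 1343 and 1339, with a 95% confidence interval of −0.12 to 0.11.

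Carriers of choline and vitamins also went both ways. Slc44a1, a choline carrier, had 386, 454 and 443 normalized counts in WT and 263, 310 and 259 in cKO, and the log2 fold change by limma was −0.63 ± 0.115 (SE), with an adjusted p of 9.42e-05. Slc44a2, its relative, with a mean level of 1752 normalized counts per kilobase of exon beside 50.8 for Slc44a1, had 15825, 14147 and 15486 in WT and 15144, 15537 and 15086 in cKO and was not called. Slc19a1, the reduced folate carrier, rose from 387, 383 and 383 to 520, 508 and 600 (0.49, adjusted p = 0.000215). Slc23a1, a vitamin C carrier, fell from 149, 108 and 105 to 70.2, 97.2 and 79.6 (−0.54, adjusted p = 0.0471). Its mean count was the lowest of all 153 genes. The call was lost with equal totals, with limma-voom and without WT sample 1, cKO sample 1 or cKO sample 3 (adjusted p up to 0.238). Of 8 vitamin carriers 2 rose and 2 fell. The other pair was Slc52a2, a riboflavin carrier, and Slc46a3, a lysosomal member. Slc52a2 rose by 0.24 (adjusted p = 0.0335) although its groups overlapped, and the call was lost without WT sample 2, cKO sample 1 or cKO sample 2 (adjusted p up to 0.216). Slc46a3 fell by 0.39 on the log2 scale (adjusted p = 0.00456), and without cKO sample 3 its adjusted p was 0.0563.

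Slc17a9, which loads ATP into vesicles and lysosomes, rose from 715, 772 and 722 normalized counts to 995, 1066 and 960 (log2 fold change 0.45 ± 0.0719, SE, limma adjusted p = 1.54e-05), with no overlap. Slc27a4, a fatty acid carrier, rose by 0.16 (adjusted p = 0.0367), a call lost without WT sample 3, cKO sample 1 or cKO sample 2 (adjusted p up to 0.225). Of 5 carriers of nucleosides and nucleobases, 0 passed the test at the adjusted threshold. Slc29a1, the equilibrative nucleoside carrier ENT1, had 1231, 1253 and 1185 in WT and 1407, 1467 and 1229 in cKO (0.16, adjusted p = 0.0612). It passed with equal totals, with the replicate number as a block and without cKO sample 3, with adjusted p-values of 0.0128, 0.0410 and 0.00826. Slc6a6, the taurine carrier, had means of 3444 and 3561 and was not called. Slc18a2, a vesicular monoamine carrier just inside the mean limit, ranged from 57.1 to 120 in WT and from 105 to 153 in cKO.

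Carriers of nucleotide sugars feed glycosylation in the Golgi and endoplasmic reticulum, and 5 were in the set, all named Slc35a. Slc35 genes named with another letter fall outside the symbol pattern. Among those measured in a list described below, Slc35c1 and Slc35e4 were called higher in cKO. Slc35b2, Slc35b3, Slc35d2, Slc35e1 and Slc35f5 were called lower. Slc35a4 had 3249, 3545 and 3399 normalized counts in WT and 3659, 3700 and 3653 in cKO (log2 fold change 0.11, limma adjusted p = 0.0400). That single call was lost when any sample other than WT sample 2 was left out, with adjusted p-values of up to 0.188. Slc35a1, Slc35a2, Slc35a3 and Slc35a5 were not called.

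Per kilobase of exon, the most abundant genes over all 6 samples were Slc3a2 with 14979 normalized counts, Slc25a5 with 14050, Slc25a3 with 9568 and Slc38a2 with 8528. Next came Slc50a1 with 3988, Slc1a5 with 3774, Slc20a1 with 3196, Slc2a1 with 2943 and Slc2a6 with 2173. These levels are a description, since the mean was used to choose the genes, and their order depends on the annotated exons of each gene. Of these 9 genes, Slc1a5 and Slc25a5 were called higher and Slc2a1 and Slc2a6 lower in cKO.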

How the data were processed

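mRNA-seq of sorted splenic NK cells was analysed, with 3 WT and 3 cKO samples grouped by the genotype in the labels. The authors deposited a signal per gene and sample, read counts scaled by the size factor that DESeq2 gives each sample. The submitters' processing notes name HISAT2 2.0.5, featureCounts 1.5.0-p3 and DESeq2 1.16.1 on GRCm38, and the methods of the study name other versions. Whether counting used strand is not given in the sources used here, so overlapping genes were marked from GENCODE M21, in which all 153 genes were found. The authors' own log2 fold changes and their standard errors, score of the Wald test, p-value and adjusted p-value are also deposited and were not used, nor was the authors' mean signal.

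The design named a count test for raw counts and limma for normalized values, and limma was used. The log2 of each value plus 1 was used. A filter of at least 1 in 3 or more samples removed no gene. The genotype effect was fitted by limma 3.58.1 (R 4.3.3) with its trend option, the test was two-sided, p-values were adjusted after Benjamini and Hochberg over 14490 genes, and a gene was called at an adjusted p under 0.05. The added 1 brings log2 values of low genes closer together. Confidence intervals are at the 95% level. The steps were run on simulated data with a spread between samples set by hand. The recovery required there was of changes larger than those of the called solute carrier genes. That run therefore does not show how reliable calls of their size are. With 3 samples per genotype the spread of a single gene is poorly known.

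The genes, substrate classes and marker lists were chosen with earlier results of these data known. Genes named are, in each class, the 4 largest rises and 4 largest falls among called genes without overlap, the most abundant gene, a preset list of well-known carriers and the 2 genes on each side of the mean limit. Any other gene named was chosen after its values were seen, and some genes the rule covers are not reported here. Promoter windows came from RefSeq. Alternatives were other pseudocounts, filters, scalings, limma-voom, a block for the replicate number, leaving out single samples and other mean limits.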

Additional observations from a re-analysis of the deposited data

How the results depend on the processing

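Every setting kept the count of called solute carrier genes between 49 and 61, beside 56 as reported, and 0 of the 56 called genes changed sign under the alternatives that refit the genes. Of the 56, 41 kept their call and direction in every such alternative and 15 lost the call in at least 1. Pseudocounts of 0.1 and 10 gave 56 and 57 calls, no filter 56, a CPM filter 57, TMM scaling 57, limma-voom 55, equal totals 61, a mean of at least 500 49 and every gene with a matching symbol 60. The fit with no filter is the same as the reported fit, since the filter removed no gene. With 1 sample left out, 50 to 57 were called. The calls among nucleotide sugar carriers ranged from 0 to 1 when a sample was left out, since Slc35a4 was the only one. Over all listed genes, 5307 were called, and 4417 to 4922 with a sample left out. The cause of these changes was not tested, beyond the fewer samples of each such fit. With the replicate number as a block, 59 genes were called, 31 higher and 28 lower. Over all listed genes, deviations from the group mean had correlations of −0.040, 0.056 and 0.038 between same-numbered samples. Between samples of unlike number they ran from −0.067 to 0.035. Deviations from a mean of 3 samples sum to 0, so these values cannot decide whether same-numbered samples were paired, and the labels give only the number.

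Genes that were not called and lay near 0 changed sign in places. With equal totals the log2 fold changes were 0.045 for Slc15a4, 0.036 for Slc16a3, 0.0079 for Slc25a3, 0.038 for Slc38a2, 0.036 for Slc3a2 and 0.031 for Slc4a7, and with TMM scaling Slc15a4 had 0.00088. With single samples left out, the log2 fold change ranged from −0.041 to 0.078 for Slc11a1, −0.024 to 0.018 for Slc15a4, −0.034 to 0.011 for Slc16a3, −0.011 to 0.040 for Slc25a28, −0.024 to 0.0011 for Slc38a2, −0.030 to 0.013 for Slc3a2, −0.037 to 0.043 for Slc44a2 and −0.060 to 0.038 for Slc4a7. Count tests by edgeR and DESeq2 on reads recovered from the values were planned and not run, since recovery did not pass the check of the values. Counting depth limits the genes with a mean near 100, whose intervals are widest.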

Other observations

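Transporter genes whose symbols fall outside the pattern also changed in both directions. A preset list held 42 genes, of which 40 were measured. It includes Slc7a6os, Mtch1 and Mtch2, whose part as carriers was not checked. Of these, Slc7a6os was not called, Mtch1 was called higher and Mtch2 lower in cKO. In the whole list 20 were called, 9 higher and 11 lower, with a median log2 fold change of −0.044. The called genes were 50% of those measured. The share was 36.6% over all listed genes and 45.3% over genes with a mean of at least 100. Slc35c1, the Golgi carrier of GDP-fucose, rose from 1515, 1541 and 1680 normalized counts to 2724, 2678 and 2441 (log2 fold change 0.73, limma adjusted p = 4.87e-11). Slco3a1, an organic anion carrier, rose from 653, 691 and 641 to 1027, 1005 and 1022 (0.62, adjusted p = 1.03e-07). Ucp2, an inner mitochondrial membrane carrier of the Slc25 family by structure, fell from 41871, 38481 and 37001 to 28868, 30132 and 27957 (−0.43, adjusted p = 6.30e-10). Mpc1 and Mpc2, the pair of subunits of the mitochondrial pyruvate carrier, fell by 0.26 and 0.27 on the log2 scale (adjusted p = 0.00421 and 0.00231), and Sfxn2 fell by 0.30.

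Among regulators of transporter genes and of amino acid sensing, 28 of 30 were measured and 16 called, 5 higher and 11 lower. That is 57.1% of those measured, beside 36.6% of all listed genes (17.8% higher and 18.8% lower). Of genes with a mean of at least 100, 45.3% were called (21.6% and 23.7%). The median of the mean counts was 4507 in this list, 1727 over genes with a mean of at least 100 and 880 over all listed genes. Shares for genes of like abundance were not computed, and a difference in share was not tested. The median log2 fold change of the list was −0.061. Tfeb and Tfe3, related factors that bind E-box letters of lysosomal genes, moved in opposite directions, at 0.31 (limma adjusted p = 1.95e-07) and −0.37 (adjusted p = 8.28e-08) on the log2 scale. Txnip, which promotes removal of glucose carriers from the cell surface, rose by 0.26, and its relative Arrdc4 fell by 0.33 on the log2 scale. Srebf1 and Srebf2, factors of lipid synthesis, fell by 0.29 and 0.30. Hif1a fell by 0.19 and Atf4 by 0.11, and Myc was not called (log2 fold change −0.076, adjusted p = 0.0885).

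Among the 39 genes of matching symbol under the mean of 100, of which 10.3% were called beside 8.85% of all listed genes under that mean, 4 passed the test. Slc36a3 and Slc27a3 rose, with log2 fold changes of 1.05 and 1.03, and Slc24a3 and Slc5a11 fell by 1.04 and 0.86 on the log2 scale. The call of Slc36a3 was lost when any sample other than WT sample 1 was left out, that of Slc27a3 without WT sample 2, cKO sample 1 or cKO sample 3, and that of Slc24a3 without WT sample 2 or cKO sample 2, with adjusted p-values of up to 0.111, 0.195 and 0.112. Slc5a11 had 119, 109 and 90.8 normalized counts in WT and 56.9, 70.9 and 47.6 in cKO. Its adjusted p was 0.00454 and stayed under 0.05 in each alternative, with 0.0303 as the highest.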
